A study of Mus musculus with 12 samples.

Results

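8 listed genes of the TNF superfamily were followed in mouse neutrophils: the ligand genes Tnf, Tnfsf9, Tnfsf13b and Tnfsf14 and the receptor genes Tnfrsf1a, Tnfrsf1b, Fas and Ltbr. They were taken by name, as 8 of the 15986 genes in the count tables, with the estimated counts of all transcripts of a gene summed. The 8 genes and the wider gene lists read below were chosen with earlier results of these data known. Their counts and medians set beside all genes therefore describe them and are no support for a trait of the family. All 8 passed the filter on low counts, as did 10802 genes in all. Polyadenylated RNA came from Ly6G-positive mature neutrophils of bone marrow from C57BL/6 mice. The 4 groups were Rab27a knockout (KO) cells with 5 µM CpG-B, KO cells without it, wild-type (WT) cells with 5 µM CpG-B and WT cells without it, each kept for 6 h at 37C and each with 3 libraries. CpG-B is a synthetic oligonucleotide that stimulates the endosomal receptor TLR9. The cells without CpG are called vehicle in one label and untreated in another, and are called unstimulated here. The sources used here do not give the Rab27a allele or say whether the deletion is found in all tissues. Rab27a encodes a small GTPase needed for the docking of secretory organelles, and the design compares its loss in these cells at rest and after CpG.

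TNF superfamily ligands are mostly trimeric membrane proteins that can be cut from the cell surface, and they signal through receptors on the same or other cells. Some receptors, such as those encoded by Tnfrsf1a and Fas, carry a death domain, while Tnfrsf1b and Ltbr bind TRAF adaptors directly and lead to NF-kB activation. In neutrophils, TNF primes adhesion and the oxidative burst, and Fas ligation can lead to apoptosis. BAFF (Tnfsf13b) sustains B cells, LIGHT (Tnfsf14) binds Ltbr and the receptor HVEM, and 4-1BB ligand (Tnfsf9) co-stimulates T cells.

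Promoter windows from RefSeq on the mouse build GRCm38.p6, running from 250 bases before to 50 after a transcript's start, were held for 7 of the 8 genes. The windows of the 3 genes that rose with CpG and of the 1 that fell are printed here, 5′ to 3′ on the gene's strand, because these genes carry the results. Capitals mark matches on either strand to the interferon-response (ISRE) core, which is GAAA followed by any 2 bases and GAAA again, the AP-1 heptamer TGANTCA or the PU.1 core GAGGAA; the NF-kB consensus decamer was searched as well.
Tnf promoter (chr17:35201958-35202257, minus strand): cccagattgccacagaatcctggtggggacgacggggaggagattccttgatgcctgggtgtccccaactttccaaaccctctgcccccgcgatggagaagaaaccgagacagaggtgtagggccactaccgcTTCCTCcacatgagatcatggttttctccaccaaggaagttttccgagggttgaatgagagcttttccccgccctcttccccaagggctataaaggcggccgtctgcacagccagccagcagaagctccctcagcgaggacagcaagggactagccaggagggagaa
Fas promoter (chr19:34290409-34290708, plus strand): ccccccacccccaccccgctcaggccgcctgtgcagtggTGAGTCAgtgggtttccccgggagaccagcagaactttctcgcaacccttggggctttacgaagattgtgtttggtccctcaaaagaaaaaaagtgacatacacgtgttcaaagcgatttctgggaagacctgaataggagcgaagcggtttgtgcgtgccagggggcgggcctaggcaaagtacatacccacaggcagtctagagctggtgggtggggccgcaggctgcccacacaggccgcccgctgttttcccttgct
Tnfrsf1b promoter (chr4:145246821-145247120, minus strand): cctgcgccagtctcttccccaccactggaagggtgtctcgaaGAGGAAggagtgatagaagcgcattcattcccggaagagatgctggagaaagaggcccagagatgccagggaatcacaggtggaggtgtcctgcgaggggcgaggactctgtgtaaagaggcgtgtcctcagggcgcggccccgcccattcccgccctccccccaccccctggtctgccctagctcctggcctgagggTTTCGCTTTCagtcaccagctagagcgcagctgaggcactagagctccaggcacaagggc
Tnfsf14 promoter (chr17:57194132-57194431, minus strand): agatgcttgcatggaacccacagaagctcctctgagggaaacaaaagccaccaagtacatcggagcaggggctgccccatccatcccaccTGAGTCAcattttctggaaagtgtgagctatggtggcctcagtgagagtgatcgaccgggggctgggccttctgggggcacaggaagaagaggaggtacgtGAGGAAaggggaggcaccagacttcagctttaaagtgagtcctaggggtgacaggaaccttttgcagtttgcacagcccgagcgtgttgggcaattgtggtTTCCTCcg
Tnfsf9 was the gene with no window here. Among the 8 windows of the other 7 genes, no match to the NF-kB decamer was found, and 5.81% of all 32851 windows in the table held one. The Tnfrsf1b window had an ISRE core on the reverse strand at positions -10 to -1 from the start, a motif held by 3.44% of all windows, and a PU.1 core, held by 28.3%. The Fas window had an AP-1 heptamer, held by 7.81% of all windows, at -211 to -205. The Tnfsf14 window had an AP-1 heptamer at -160 to -154 and 2 PU.1 cores, and the Tnf window had a single PU.1 core on the reverse strand at -117 to -112. Of the windows not printed, Ltbr had a PU.1 core, Tnfsf13b had AP-1 and ISRE matches, and Tnfrsf1a had none of the 4 motifs. The printed matches did not overlap each other. These are matches of letters and not measured binding sites, and a window without a match says nothing of sites elsewhere.

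On a scale of counts per library size (CPM), Rab27a transcript averaged 107 ± 9.78 CPM in KO cells and 236 ± 42.9 CPM in WT cells with CpG (SD, n = 3 each), and 113 ± 17.4 CPM in KO cells and 272 ± 54.9 CPM in WT cells without it, so that KO libraries were lower than WT libraries but held reads of the gene. Library totals ran from 10928813 to 15513279 estimated counts. The 12 neutrophil markers summed to between 71835 and 112074 CPM in each library. Ly6g stood between 112 and 197 CPM and the G-CSF receptor gene Csf3r between 3497 and 5218 CPM. No neutrophil marker passed the test in any comparison. Markers of other cells differed among the KO libraries: the sum of 8 erythroid markers ran from 527 to 6120 CPM in KO cells with CpG, against 4346 to 5198 CPM in WT cells with CpG, and from 442 to 6036 CPM in unstimulated KO cells, against 3994 to 5251 CPM in unstimulated WT cells. KO libraries numbered 1 were lowest and those numbered 3 highest in this sum. Hbb-bt, alone of the 8 erythroid markers, was called between genotypes, lower in KO cells in both treatments. It had 0.960 to 6.96 CPM in KO libraries with CpG, against 337 to 424 CPM in WT libraries with CpG. Unstimulated, it had 0.615 to 4.52 CPM in KO libraries, against 308 to 453 CPM in WT libraries. The cause of this difference, and its bearing on other genotype differences, was not tested.

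Changes are log2 fold changes with their standard errors (SE), fitted to all 12 libraries, and a gene is said to rise or fall where the quasi-likelihood test of edgeR gave a p of at most 0.05 after adjustment over 10802 genes by Benjamini and Hochberg's method, which stands behind every adjusted p given here. Levels are CPM of the authors' estimated counts unless TPM is named. The labels number the 3 libraries of a group but do not say that each is a separate mouse; p-values therefore reflect only how these libraries spread, which may be technical. In bulk samples, fewer cells of a type and less RNA per cell cannot be told apart.

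With CpG, Tnf, Tnfrsf1b and Fas rose and Tnfsf14 fell in both genotypes, while Tnfsf13b and Ltbr passed no test. Of the 8 genes, 3 rose and 1 fell in KO cells, where 11.6% of all genes tested were called (7.57% higher and 4.06% lower). In WT cells 3 also rose and 1 fell, where 6.04% of all genes were called (4.74% higher and 1.3% lower). The median log2 change of the 8 was 0.58 in KO cells and 0.45 in WT cells, beside -0.0064 and -0.0070 over all genes tested. The groups of libraries did not overlap for 6 of the 8 genes in KO cells, beside 24.2% of all genes, and for 5 of the 8 in WT cells, beside 25.7%. Before adjustment, 6 of the 8 had p under 0.05 in KO cells, beside 22.6% of all genes, and 4 of the 8 in WT cells, beside 16.3%. Tnfsf9 is among the 6 in KO cells on both measures. Its unstimulated KO libraries had 5, 7 and 9 counts, and it passed the filter on low counts through its CpG libraries. Its place in these counts is therefore no support for a rise.

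**Figure D1:**
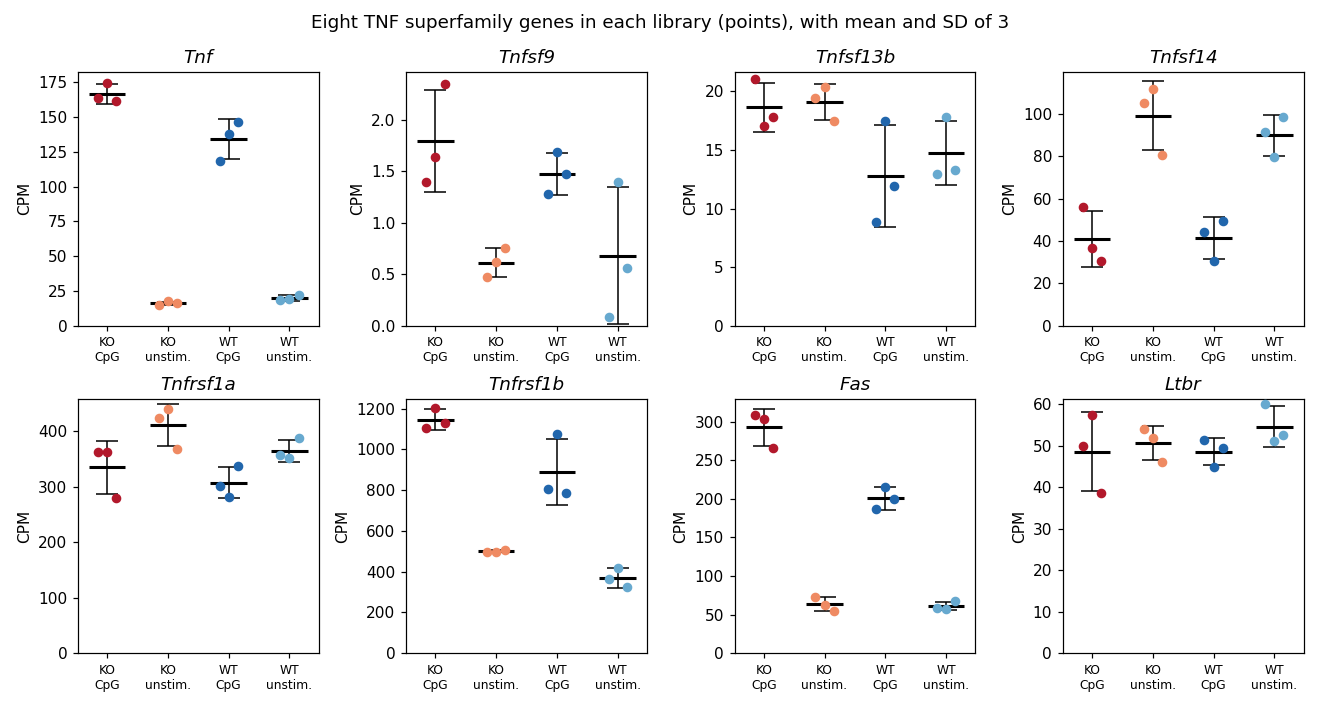
Level in CPM (y axis, from 0) of each of the 8 genes in each library (points), by group (x axis), with the mean of 3 libraries (wide bar) and the SD (error bars). Tnf, Tnfrsf1b and Fas are higher in every CpG library than in any unstimulated library and Tnfsf14 is lower, while the Ltbr groups overlap.

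Among the ligand genes, Tnf encodes the founding cytokine of the family. It had 164, 175 and 161 CPM in KO libraries 1, 2 and 3 with CpG, against 15.1, 17.5 and 16.1 CPM in unstimulated KO libraries. In WT cells it had 118, 138 and 147 CPM with CpG, against 18.3, 19.2 and 22.1 CPM unstimulated. Every CpG library was well above every unstimulated library, and KO and WT libraries did not overlap in either treatment, KO being higher with CpG and lower without it. Tnf rose 10.3-fold in KO cells (log2 3.36, SE 0.12; adjusted p = 2.17e-09 by edgeR's quasi-likelihood test). In WT cells it rose 6.76-fold (log2 2.76, SE 0.12; adjusted p = 1.29e-08 by the same edgeR test).

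Tnfsf14, the gene of LIGHT, was the only one of the 8 to fall in this test. Its transcript had 55.8, 36.7 and 30.6 CPM in KO libraries with CpG, against 105, 111 and 80.5 CPM in unstimulated KO libraries. WT libraries had 44.4, 30.4 and 49.3 CPM with CpG, against 91.5, 79.5 and 98.4 CPM unstimulated. The highest CpG library of either genotype lay below the lowest unstimulated library. The transcript was 2.42-fold lower with CpG in KO cells (log2 -1.27, SE 0.22; adjusted p = 0.00158 by edgeR's quasi-likelihood test). It was 2.17-fold lower in WT cells (log2 -1.12, SE 0.22; adjusted p = 0.00681 by the same edgeR test). RefSeq places Tnf and Tnfsf14 on the same chromosome, 17, with Tnf directly beside the genes Lta and Ltb, and with Cd70 as the only coding gene between Tnfsf14 and Tnfsf9.

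Tnfsf9 was the least abundant member and rested on few counts. Its counts summed to 70 over the KO libraries with CpG, against 21 over the unstimulated KO libraries, a ratio of 2.91 (95% interval 1.76 to 4.99). In WT cells the sums were 56 with CpG and 27 without, a ratio of 2.07 (1.28 to 3.40). These intervals, and those given for other genes with few counts, come from the counts alone and cover counting error only. Unstimulated WT libraries spread from 0.0853 to 1.40 CPM and overlapped those with CpG, while the KO groups did not overlap. The gene did not pass edgeR's test in KO cells (log2 1.53, SE 0.58; adjusted p = 0.121) or in WT cells (log2 1.07, SE 0.57; adjusted p = 0.396). Without the unstimulated WT library 1, which helps set the shared spread, the KO change had an adjusted p of 0.0460 by edgeR. With library number within genotype as a replicate block, the KO change had an adjusted p of 0.0319 by edgeR, where 24% of all genes were called.

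BAFF transcript, from Tnfsf13b, showed no passing change with CpG. It had 21.0, 17.0 and 17.8 CPM in KO libraries with CpG, against 19.5, 20.4 and 17.4 CPM in unstimulated KO libraries. In WT libraries it had 8.86, 17.4 and 11.9 CPM with CpG, against 12.97, 17.8 and 13.3 CPM unstimulated. The groups overlapped in both genotypes. The fitted change was -0.037 on the log2 scale in KO cells (95% interval -0.49 to 0.42) and -0.21 in WT cells (-0.67 to 0.25).

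Among the receptor genes, those of the pair that bind TNF itself were the most abundant of the 8 per transcript length in unstimulated cells. Tnfrsf1b, which encodes TNF receptor 2, had 1106, 1203 and 1129 CPM in KO libraries with CpG, against 498, 495 and 506 CPM in unstimulated KO libraries. WT libraries had 806, 1077 and 787 CPM with CpG, against 362, 419 and 323 CPM unstimulated. No CpG library overlapped an unstimulated one. The gene rose 2.29-fold in KO cells (log2 1.197, SE 0.14; adjusted p = 4.98e-05 by edgeR's quasi-likelihood test). In WT cells it rose 2.42-fold (log2 1.28, SE 0.14; adjusted p = 4.72e-05 by the same edgeR test). Its curated transcript held 57.7 to 64.6% of the gene's estimated counts in the 12 libraries and a predicted transcript the rest, so the count of this gene rests in part on a predicted model.

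Tnfrsf1a, which encodes the death-domain receptor TNF receptor 1, had 362, 363 and 279 CPM in KO libraries with CpG, against 425, 441 and 368 CPM in unstimulated KO libraries. In WT libraries it had 301, 282 and 337 CPM with CpG, against 356, 351 and 387 CPM unstimulated. CpG libraries lay below unstimulated libraries in both genotypes without overlap. The change did not pass edgeR's test in KO cells (log2 -0.30, SE 0.12; adjusted p = 0.170) or in WT cells (log2 -0.25, SE 0.12; adjusted p = 0.355). The same-numbered WT libraries deviated together, and with library number within genotype as a replicate block Tnfrsf1a in WT cells had an adjusted p of 0.0214 by edgeR, where 5 of the 8 genes and 16.9% of all genes were called. Under the same block the KO change of Tnfrsf1a had an adjusted p of 0.00552 by edgeR, where 24% of all genes were called. Scaling by library size alone gave the KO change an adjusted p of 0.00972 by edgeR.

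Set per transcript length on the authors' TPM scale, the order of this pair of receptor genes turned over with CpG. The ratio of Tnfrsf1b TPM to Tnfrsf1a TPM averaged 1.85 ± 0.281 in KO cells with CpG, against 0.666 ± 0.0731 in unstimulated KO cells (SD, n = 3 each). It averaged 1.60 ± 0.439 in WT cells with CpG, against 0.544 ± 0.0916 in unstimulated WT cells. Every CpG library had a ratio above 1 and every unstimulated library a ratio below 1. The exact two-sided permutation test gave p = 0.1 in each genotype, which is the smallest value that 3 libraries against 3 can give. Between genotypes the ratio was 1.15 times as high in KO as in WT cells with CpG (exact p = 0.4) and 1.22 times as high without it (exact p = 0.2).

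Fas encodes the death receptor of Fas ligand. It had 309, 304 and 266 CPM in KO libraries with CpG, against 72.4, 62.8 and 54.6 CPM in unstimulated KO libraries. WT libraries had 187, 216 and 200 CPM with CpG, against 59.0, 57.8 and 67.1 CPM unstimulated. The treatments did not overlap in either genotype, and with CpG the lowest KO library was above the highest WT library. The rise was 4.63-fold in KO cells (log2 2.21, SE 0.12; adjusted p = 6.66e-08 by edgeR's quasi-likelihood test). In WT cells it was 3.28-fold (log2 1.71, SE 0.12; adjusted p = 1.26e-06 by the same edgeR test). Of 8 transcripts of Fas in the tables, a single curated transcript held 66.4 to 78.0% of the counts.

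Ltbr, the receptor of lymphotoxin and LIGHT, passed no test with CpG. It had 49.9, 57.4 and 38.5 CPM in KO libraries with CpG, against 54.0, 51.9 and 46.0 CPM in unstimulated KO libraries. In WT libraries it had 51.3, 45.0 and 49.5 CPM with CpG, against 60.1, 51.1 and 52.6 CPM unstimulated. Groups overlapped in both genotypes. The fitted log2 change was -0.059 in KO cells (95% interval -0.35 to 0.24) and -0.17 in WT cells (-0.46 to 0.13). Ltbr and Tnfrsf1a lie on chromosome 6 with Scnn1a as the only coding gene between them.

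**Figure D2:**
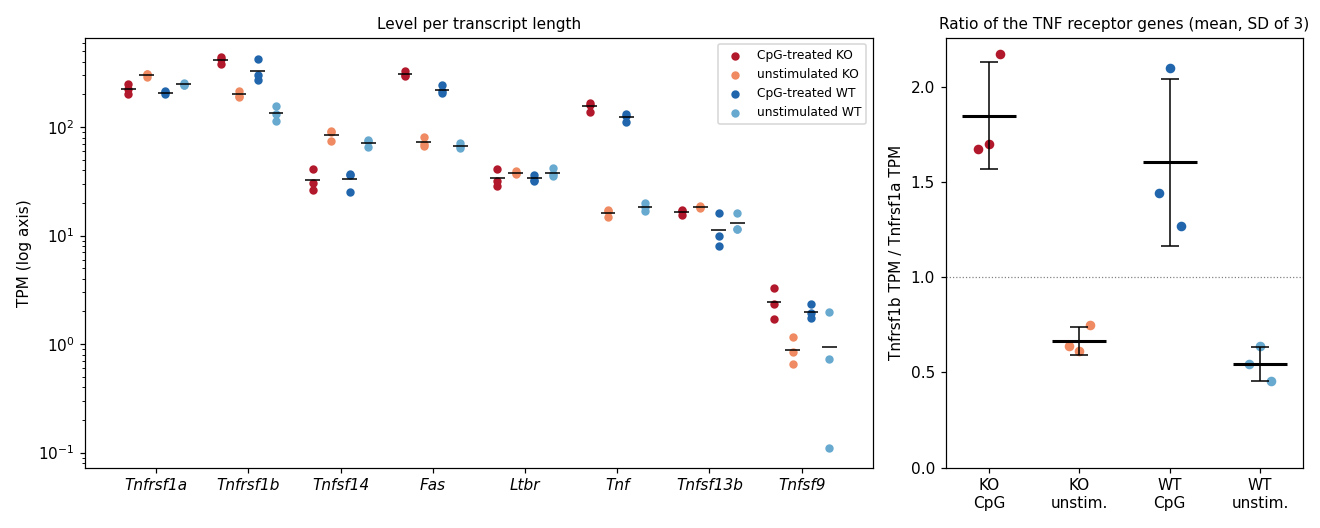
Left, TPM of the 8 genes in each library (points, log axis) with the mean of 3 (bars), genes ordered by their mean in unstimulated WT cells; right, ratio of Tnfrsf1b TPM to Tnfrsf1a TPM in each library with mean and SD of 3. Tnf and Fas move up the order with CpG and Tnfsf14 moves down, and the receptor ratio lies above 1 in every CpG library and below 1 in every unstimulated library.

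The order of levels per transcript length was not the same in the 2 treatments. In KO cells with CpG it ran Tnfrsf1b (415 ± 32.1 TPM), Fas (308 ± 18.1), Tnfrsf1a (227 ± 24.6), Tnf (155 ± 15.1), Ltbr (33.6 ± 6.34), Tnfsf14 (32.4 ± 7.71), Tnfsf13b (16.5 ± 0.866) and Tnfsf9 (2.45 ± 0.809 TPM; SD, n = 3). In unstimulated KO cells it ran Tnfrsf1a (301 ± 12.5 TPM), Tnfrsf1b (200.2 ± 13.3), Tnfsf14 (85.2 ± 9.87), Fas (72.8 ± 7.53), Ltbr (37.9 ± 1.60), Tnfsf13b (18.3 ± 0.465), Tnf (16.2 ± 1.23) and Tnfsf9 (0.887 ± 0.247 TPM). The library values of Ltbr and Tnfsf14 overlapped with CpG and those of Tnfsf14 and Fas overlapped without it, while other neighbours in these orders did not overlap. WT cells with CpG had the same order, with Tnfrsf1b at 331 ± 78.1 TPM and Tnf at 124 ± 10.4 TPM, but there Fas (221 ± 19.3 TPM) and Tnfrsf1a (208 ± 7.41 TPM) overlapped too. Unstimulated WT cells differed from unstimulated KO cells in the place of Tnf (18.3 ± 1.41 TPM), which was above Tnfsf13b (13.1 ± 2.78 TPM) without overlap.

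Between genotypes, Fas with CpG was the single call among the 8 genes. With CpG, 1 of the 8 was higher in KO cells and none was lower, where 3.92% of all genes were called (1.7% higher and 2.21% lower). The groups did not overlap for 3 of the 8, Tnf, Tnfrsf1b and Fas, beside 20.4% of all genes, and 4 of the 8 had an unadjusted p under 0.05, beside 18.1%. In unstimulated cells none of the 8 was called, where 4.75% of all genes were (2.11% higher and 2.64% lower). By unadjusted p under 0.05 in edgeR, 2 of the 8 passed there, beside 17.6% of all genes, and DESeq2 called 1, Tnfrsf1b. The groups did not overlap for 2 of the 8, Tnf and Tnfrsf1b, beside 25% of all genes.

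Fas with CpG averaged 293 ± 23.6 CPM in KO cells and 201 ± 14.6 CPM in WT cells (SD, n = 3 each), 1.46-fold higher in KO (log2 0.54, SE 0.12; adjusted p = 0.0188 by edgeR's quasi-likelihood test). In unstimulated cells it averaged 63.3 ± 8.93 CPM in KO cells and 61.3 ± 5.07 CPM in WT cells, and the groups overlapped (log2 0.046, 95% interval -0.22 to 0.31). The call with CpG rested on single libraries. Its adjusted p in edgeR was 0.146 without WT CpG library 1, 0.0566 without KO CpG library 1 and 0.0588 in a fit of only the 6 libraries compared.

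Tnf averaged 167 ± 7.06 CPM in KO cells and 134 ± 14.5 CPM in WT cells with CpG (SD, n = 3 each; log2 0.31, SE 0.11; edgeR adjusted p = 0.142). Unstimulated, it averaged 16.2 ± 1.19 CPM in KO cells and 19.8 ± 2.02 CPM in WT cells (log2 -0.29, SE 0.12; edgeR adjusted p = 0.220). Both differences missed the threshold, and they had opposite signs. Tnfrsf1b averaged 1146 ± 51.0 CPM in KO cells and 890.1 ± 162 CPM in WT cells with CpG (log2 0.36, SE 0.14; edgeR adjusted p = 0.172). In unstimulated cells it averaged 499.8 ± 5.70 CPM in KO cells and 368 ± 48.2 CPM in WT cells (log2 0.44, SE 0.14; edgeR adjusted p = 0.0916). Without WT CpG library 2, Tnfrsf1b had adjusted p-values of 0.0331 with CpG and 0.0380 unstimulated by edgeR. That library is not in the unstimulated comparison and enters it only by helping to set the shared spread and scaling. The unstimulated difference also passed in DESeq2 (adjusted p = 0.0146) and in edgeR's fit of only the libraries compared (adjusted p = 0.0480).

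Tnfsf13b averaged 18.6 ± 2.12 CPM in KO cells and 12.7 ± 4.35 CPM in WT cells with CpG (SD, n = 3 each), and the groups overlapped (log2 0.55, SE 0.21; edgeR adjusted p = 0.192). Without WT CpG library 2, the highest of its group, the adjusted p was 0.0266 by edgeR. Unstimulated, it averaged 19.1 ± 1.51 CPM in KO cells and 14.7 ± 2.72 CPM in WT cells (log2 0.37, SE 0.21; edgeR adjusted p = 0.409). For the remaining genes the genotype differences were small or imprecise. With CpG the 95% intervals of KO over WT on the log2 scale were -0.14 to 0.40 for Tnfrsf1a, -0.29 to 0.30 for Ltbr, -0.49 to 0.46 for Tnfsf14 and -0.84 to 1.40 for Tnfsf9.

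**Figure D3:**
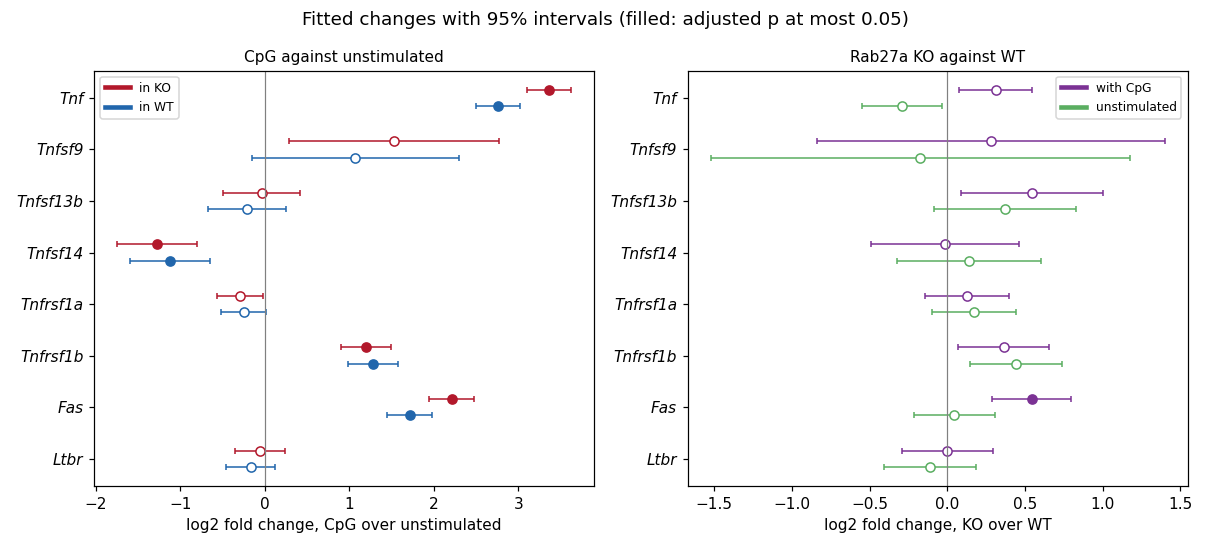
Fitted log2 fold changes (points) with 95% intervals (bars) of the 8 genes; left, CpG over unstimulated in KO and WT cells; right, KO over WT cells with CpG and unstimulated. Filled points have an adjusted p of at most 0.05: Tnf, Tnfrsf1b, Fas and Tnfsf14 on the left in both genotypes, and Fas with CpG on the right.

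The difference between genotypes in the CpG change was tested as an interaction. None of the 8 genes and 0 of 10802 genes (0%) passed in edgeR after adjustment, while 2 of the 8 and 3.38% of all genes had an unadjusted p under 0.05. Those were Tnf, whose change was 0.60 larger on the log2 scale in KO cells than in WT cells (SE 0.16; unadjusted p = 0.00241), and Fas, whose change was 0.50 larger (SE 0.17; unadjusted p = 0.0113). With library number within genotype as a replicate block, the interaction of Tnf had an adjusted p of 0.0687 in edgeR and that of Fas 0.128. Whether the KO numbers are pairs was not settled. DESeq2 called 3 genes and the fit with that block called 13, none of them among the 8.

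Of the 12 monocyte and macrophage markers, Csf1r and Adgre1 rose with CpG in both genotypes and none fell. Csf1r was also called higher in KO than in WT cells with CpG, with 693 to 945 CPM in KO libraries and 530 to 582 CPM in WT libraries, in the comparison in which Fas was called. The summed level of the list was 1386 to 1803 CPM in KO libraries with CpG, against 706 to 776 CPM in unstimulated KO libraries, and 1358 to 1421 CPM in WT libraries with CpG, against 904 to 926 CPM in unstimulated WT libraries. Without Csf1r the sum was 643 to 886 CPM in KO cells with CpG, against 542 to 592 CPM in unstimulated KO cells, and 776 to 890.4 CPM in WT cells with CpG, against 699 to 744 CPM in unstimulated WT cells. Levels within the list differed widely, with Ly6c2 between 283 and 534 CPM, Cd68 between 115 and 180.4 CPM and C1qa between 2.46 and 17.2 CPM over all libraries, and none of the 12 was at 0 in every library. Of 8 dendritic cell markers, Bst2 and Zbtb46 rose with CpG in KO cells and none passed in WT cells. That list summed to 9.07 to 34.1 CPM in KO libraries with CpG, against 4.82 to 17.8 CPM in unstimulated KO libraries, and to 13.9 to 19.2 CPM in WT libraries with CpG, against 10.4 to 12.6 CPM in unstimulated WT libraries. The part of these cells in the changes of Tnf, Tnfrsf1b and Fas was not tested. Leaving out both KO libraries numbered 1, or both numbered 3, which had the lowest and highest erythroid sums, changed none of the calls of the 8 genes with CpG in KO cells. That bears on stability only and says nothing of monocytes or dendritic cells. KO CpG library 1 had the lowest erythroid sum of its group (527 CPM) but the highest monocyte and macrophage sum (1803 CPM).

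A wider list of 38 other ligand and receptor genes of the family was read in the same fit. Of these, 35 were in the tables, and 21 passed the filter on low counts: 5 of 14 ligand genes and 16 of 24 receptor genes. With CpG, 9 rose and 1 fell in KO cells and 11 did not pass, and 5 rose and 1 fell in WT cells and 15 did not pass, beside 11.6% of all genes called in KO cells and 6.04% in WT cells. Their median log2 change was 0.29 in KO cells and 0.33 in WT cells, beside -0.0064 and -0.0070 over all genes. With library number within genotype as a replicate block, 9 rose and 1 fell in WT cells, beside 16.9% of all genes called; the genes gained were Tnfrsf9, Tnfrsf14, Tnfrsf13b and Tnfrsf13c. The filter keeps a gene with counts in CpG libraries alone, so these counts describe the list and are not support for its direction. In a fit of curated transcripts only, 5 genes of the list were called in KO cells and 3 in WT cells.

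The lymphotoxin genes beside Tnf were among those that rose. Ltb, which encodes the membrane anchor of lymphotoxin, had 412, 304 and 268 CPM in KO libraries with CpG, against 79.6, 85.5 and 58.3 CPM in unstimulated KO libraries. WT libraries had 236, 258 and 299 CPM with CpG, against 68.8, 79.8 and 84.0 CPM unstimulated. Ltb rose 4.41-fold in KO cells (log2 2.14, SE 0.18; adjusted p = 2.87e-06 by edgeR's quasi-likelihood test) and 3.41-fold in WT cells (log2 1.77, SE 0.18; adjusted p = 2.95e-05). Lta, which encodes the soluble lymphotoxin chain, had 92 counts in KO libraries with CpG and 3 unstimulated, a ratio of 26.7 (95% interval 8.87 to 132; edgeR adjusted p = 0.000373). In WT libraries it had 44 counts with CpG and 8 unstimulated, a ratio of 5.48 (2.55 to 13.5; edgeR adjusted p = 0.0273), and this WT call was lost, with adjusted p of 0.0508 to 0.127, on leaving out WT CpG library 1 or 3 or any of the unstimulated WT libraries. The 3 neighbours on chromosome 17 all passed in both genotypes in the fit of all 12 libraries, with the Lta level the lowest. Lta passed the filter on low counts through its CpG libraries. Its WT call was also lost in curated transcripts alone (edgeR adjusted p = 0.110). Its place beside Tnf and Ltb is therefore no support for a shared rise.

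Some ligand genes rested on very few counts. TRAIL, encoded by Tnfsf10, had 40 counts in KO libraries with CpG and 1 unstimulated, a ratio of 34.9 (95% interval 5.91 to 1412; edgeR adjusted p = 0.0366). The counts were uneven, with 1, 13 and 26 in KO CpG libraries 1, 2 and 3, against 0, 0 and 1 unstimulated. The call was lost in the curated transcripts alone (0.0848) and, at 0.0501 to 0.140, without any of 7 single libraries, among them every unstimulated KO library. In WT libraries Tnfsf10 had 22 counts with CpG and 7 unstimulated, a ratio of 3.13 (1.29 to 8.67; edgeR adjusted p = 0.539). Tnfsf15, which encodes the ligand TL1A, stayed below the filter with 50 counts in KO libraries with CpG and 1 unstimulated (ratio 43.6, 7.47 to 1756), and with 21 and 6 counts in WT libraries (3.49, 1.36 to 10.6). Fasl, the gene of Fas ligand, had 10 counts in KO libraries with CpG, against 7 in unstimulated KO libraries, and 7 in WT libraries with CpG, against 8 in unstimulated WT libraries, and it stayed below the filter. Cd70, Tnfrsf17 and Edar were not analysed here.

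Among other receptor genes, Cd40, which encodes a co-stimulatory receptor of antigen-presenting cells, had 401 counts in KO libraries with CpG and 20 unstimulated, a ratio of 17.5 (95% interval 11.2 to 28.9). In WT libraries it had 271 counts with CpG and 19 unstimulated, a ratio of 14.2 (8.92 to 24.0). It passed edgeR's test in both genotypes (adjusted p = 0.000149 in KO and 0.000518 in WT cells). Tnfrsf8, the gene of CD30, rose by log2 1.92 (SE 0.29; edgeR adjusted p = 0.000551) in KO cells and 1.67 (SE 0.29; adjusted p = 0.00272) in WT cells. Tnfrsf11a, the gene of RANK, rose by log2 2.79 (SE 0.57; edgeR adjusted p = 0.00492) in KO cells and 2.23 (SE 0.54; adjusted p = 0.0248) in WT cells. It had 76 counts in KO libraries with CpG and 9 unstimulated, and 63 and 13 in WT libraries. Like Cd40, it passed the filter on low counts through its CpG libraries. In curated transcripts alone its WT change had an edgeR adjusted p of 0.0982 and was not called. Tnfrsf21, the gene of death receptor 6, was the 1 gene that fell, with log2 -0.47 in KO cells (edgeR adjusted p = 0.0237) and -0.46 in WT cells (adjusted p = 0.0454). Without single libraries the Tnfrsf21 call was lost, with adjusted p of 0.0515 to 0.111 in KO cells (KO CpG library 3, unstimulated KO library 1 or 2) and 0.0516 to 0.140 in WT cells (any of 7 libraries), and the Tnfrsf11a call in WT cells at 0.0516 to 0.134 (WT CpG library 2 or any unstimulated WT library). In KO cells Tnfrsf9, the receptor of Tnfsf9, rose by log2 1.69 (edgeR adjusted p = 0.0322), and Tnfrsf14, the HVEM gene, by 0.93 (adjusted p = 0.0139). In WT cells the log2 change was 1.86 for Tnfrsf9 (edgeR adjusted p = 0.0585) and 0.68 for Tnfrsf14 (adjusted p = 0.101). CpG and unstimulated WT libraries did not overlap for either, beside 25.7% of all genes. With the replicate block these had adjusted p-values of 0.0301 and 0.000914 by edgeR, where 16.9% of all genes were called. Tnfrsf9 had 49 counts in KO libraries with CpG and 13 unstimulated, and 30 and 8 in WT libraries. It passed the filter on low counts through its CpG libraries. Its lack of overlap and its block value are therefore no support for a rise. In KO cells the Tnfrsf14 call was lost in the curated transcripts alone (adjusted p = 0.488) and the Tnfrsf9 call in DESeq2 (0.0624). Without single libraries, Tnfrsf14 lost its call at 0.0576 to 0.0710 (KO CpG library 2, unstimulated KO library 2 or 3) and Tnfrsf9 at 0.0510 to 0.148 (any of 8 libraries).

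Tnfrsf13b, the gene of the BAFF receptor TACI, was the only gene of the wider list called between genotypes in the edgeR fit of all 12 libraries. DESeq2 and a fit of only the libraries compared each called 1 more unstimulated, Tnfrsf23, named after its values were seen. Tnfrsf13b had 11.7, 12.6 and 18.4 CPM in KO libraries with CpG, against 8.56, 6.04 and 5.53 CPM in WT libraries with CpG. Unstimulated KO libraries had 6.42, 7.47 and 10.6 CPM, against 3.33, 3.45 and 4.09 CPM in unstimulated WT libraries. KO exceeded WT in every library of each treatment, by log2 1.08 with CpG (SE 0.24; adjusted p = 0.0216 by edgeR's quasi-likelihood test) and by 1.18 unstimulated (SE 0.26; adjusted p = 0.0169). The calls were lost with CpG without KO CpG library 3, WT CpG library 2 or WT CpG library 3 (adjusted p 0.0552 to 0.0954), and unstimulated without KO library 3, WT library 1 or WT library 2 (0.0573 to 0.0773), while scaling by library size alone gave 0.0625 with CpG. The 9 B-lineage markers summed to 9.60 to 114 CPM in KO cells with CpG, against 39.7 to 49.8 CPM in WT cells with CpG, and to 7.84 to 99.3 CPM in unstimulated KO cells, against 30.9 to 38.7 CPM in unstimulated WT cells. Tnfrsf13b was highest in the KO libraries numbered 3, as was the B-lineage sum, and it was above WT also in the KO libraries numbered 1, where that sum was lowest; the part of B-lineage cells in this difference was not tested. Tnfrsf13b also passed with CpG in KO cells (log2 0.79, SE 0.24; edgeR adjusted p = 0.0475), a call lost at 0.0573 to 0.197 without any of 9 single libraries.

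Of 33 genes that carry signals from these receptors, all tested, 11 rose and 22 did not pass in KO cells, beside 11.6% of all genes called. In WT cells 8 rose and 25 did not pass, beside 6.04% of all genes called. None fell in this fit, and the median log2 change of the 33 was 0.32 in KO cells and 0.21 in WT cells, beside -0.0064 and -0.0070 over all genes. With library number within genotype as a replicate block, 12 rose and 1 fell in WT cells, beside 16.9% of all genes called, and 15 rose and 2 fell in KO cells, beside 24%. The largest rises were in Traf1, a receptor adaptor, and in Tnfaip3, Tnip1 and Birc3. Traf1 averaged 62.2 CPM in KO cells with CpG, against 2.76 CPM in unstimulated KO cells, and 46.9 CPM in WT cells with CpG, against 3.35 CPM in unstimulated WT cells. That was log2 4.48 (SE 0.21; adjusted p = 7.31e-09 by edgeR's quasi-likelihood test) in KO cells and 3.81 (SE 0.20; adjusted p = 3.56e-08) in WT cells. Tnfaip3, which encodes the ubiquitin-editing enzyme A20, rose by log2 2.99 in KO cells and 2.78 in WT cells (SE 0.18 each). Its partner Tnip1 rose by 2.70 in KO cells and 1.95 in WT cells, and Birc3, the gene of the ubiquitin ligase cIAP2, by 2.53 in KO cells and 2.05 in WT cells. Cflar, whose product FLIP blocks caspase-8 at death receptors, rose by log2 1.07 (SE 0.11; edgeR adjusted p = 1.41e-05) in KO cells and 0.70 (SE 0.11; adjusted p = 0.000878) in WT cells, and the adaptor gene Traf3 by 1.49 in KO cells and 1.09 in WT cells. In a fit of curated transcripts only, Traf3 had a larger log2 change, 4.63 in KO and 1.82 in WT cells, and was not called in either (edgeR adjusted p = 0.0516 in KO and 0.564 in WT cells).

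Between genotypes 2 of the 33 signalling genes were called with CpG, beside 3.92% of all genes, and none without it, beside 4.75%. Tnip1 had 1065, 1342 and 857 CPM in KO libraries with CpG, against 565, 598 and 594 CPM in WT libraries with CpG (log2 0.89, SE 0.15; adjusted p = 0.00235 by edgeR's quasi-likelihood test). In a fit of curated transcripts only, this difference had an adjusted p of 0.382. Cflar had 255, 326 and 278 CPM in KO libraries with CpG, against 197, 208 and 195 CPM in WT libraries with CpG (log2 0.52, SE 0.11; edgeR adjusted p = 0.0122). Its adjusted p was 0.0865 without WT CpG library 1 and 0.0894 in a fit of only the libraries compared.

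Adam17, the gene of the protease that sheds TNF and both TNF receptors from the cell surface, was called in all 4 comparisons. It had 559, 835 and 474 CPM in KO libraries with CpG, against 265, 294 and 256 CPM in WT libraries with CpG. Unstimulated KO libraries had 302, 279.7 and 243 CPM, against 113, 125 and 162 CPM in unstimulated WT libraries. No groups overlapped between genotypes or between treatments of a genotype. Adam17 was higher in KO than in WT cells by log2 1.196 with CpG (SE 0.19; adjusted p = 0.00201 by edgeR's quasi-likelihood test) and by 1.04 unstimulated (SE 0.19; adjusted p = 0.00531). With CpG it rose by log2 1.18 in KO cells (edgeR adjusted p = 0.000969) and 1.03 in WT cells (adjusted p = 0.00470). Of the other 5 shedding and processing genes tested, Sppl2a, which encodes an intramembrane protease that cuts TNF remnants, rose with CpG in KO cells (log2 0.85, SE 0.13; edgeR adjusted p = 0.000571) and in WT cells (log2 0.50, SE 0.13; adjusted p = 0.0355), and 4 passed in neither. The Sppl2a calls were lost in curated transcripts alone, with log2 0.80 in KO cells (edgeR adjusted p = 0.172) and 0.93 in WT cells (adjusted p = 0.161), and in WT cells also at 0.0603 to 0.165 without any of 6 single libraries.

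**Figure D4:**
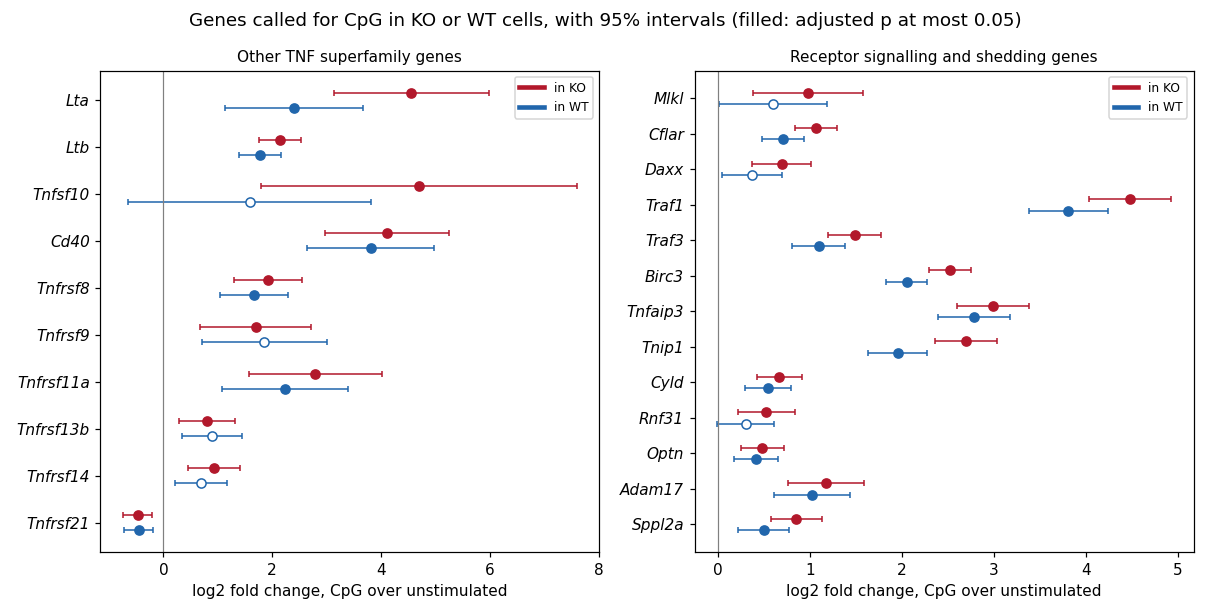
Fitted log2 fold changes for CpG over unstimulated cells (points) with 95% intervals (bars) in KO and WT cells, for the genes called in either genotype among the other family genes (left) and the signalling and shedding genes (right). Filled points have an adjusted p of at most 0.05; all the called genes shown rose except Tnfrsf21.

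Over the 12 libraries, the genes most like each member were found by Pearson correlation of log CPM, given with no test. Libraries share the treatment groups, so these values describe the pattern and nothing of shared control. Tnf was most like Il2rg (r = 0.997) and Nfkbia (0.996), the cytokine receptor common chain and the NF-kB inhibitor genes. Fas was most like N4bp1 (r = 0.997) and Ptprj (0.993), and Tnfrsf1b was most like Il1b (0.989) and Malt1 (0.982). Tnfsf14 was most like Fbxo31 (r = 0.979) and Phospho1 (0.976), and Tnfrsf1a was most like Itprip (0.988) and Prickle3 (0.972). The values were lower for Ltbr with Abtb1 (r = 0.932), Tnfsf13b with Bmpr1a (0.929) and Tnfsf9 with Maff (0.886). Among the members themselves, Tnf and Fas had r = 0.983 and Tnf and Tnfsf14 had r = -0.912.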

How the data were processed

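For each of the 12 libraries the authors deposited estimated counts (expected counts from RSEM), TPM and FPKM values of RefSeq transcripts, per the file headers. The deposited TPM adjust for transcript length and to a fixed sum in each library. The deposited FPKM, used here only as an alternative scale for the order of levels, adjust for length and depth. Bowtie2 and RSEM 1.2.28 with build GRCm39 are named in the submitters' processing notes, without their settings or the strandedness.

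Counts were summed over the transcripts of a gene and rounded. Gene names came from RefSeq's GRCm38.p6 annotation, in which 15883 of 15986 genes had a symbol. Genes were kept by filterByExpr (smallest count 10, smallest total 15), scaled by TMM (factors 0.900 to 1.09) and fitted with 1 mean per group over all 12 libraries by the quasi-likelihood method of edgeR 4.0.16 in R 4.3.3, with 8 residual degrees of freedom and a common dispersion of 0.0293. The 5 comparisons were CpG in each genotype, KO against WT in each treatment, and the interaction. The script was tested on simulated data. DESeq2 1.42.0 was used in an alternative.

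Named genes were the 8 members in every comparison, other family and shedding genes that passed any comparison, the 6 signalling genes with the largest change in each CpG comparison and those called between genotypes, and the 2 genes most like each member. Family genes under the filter were added for their counts after their values were seen. The members and lists were chosen with earlier results of these data known. Same-numbered WT libraries deviated together (correlations of deviations 0.28, 0.41 and 0.44). A value with library number within genotype as a block therefore stands beside WT results where it changes a call. The same was done for KO results of the 8 genes, though KO libraries numbered 2 did not deviate together. No label ties a number to an animal. The alternatives were another scaling, another filter or none, DESeq2, curated transcripts only, only the libraries compared, replicate blocks and leaving out each library; fits without the KO libraries numbered 1 or 3 were added after seeing the data.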

Additional observations from a re-analysis of the deposited data

How the results depend on the processing

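The calls of Tnf, Tnfrsf1b, Fas and Tnfsf14 with CpG were kept in both genotypes under every alternative run, and the genotype calls were less stable. Curated transcripts only gave, for genes called, 425 (CpG in WT), 227 (KO against WT with CpG) and 283 (unstimulated); for other family genes 5 (CpG in KO), 3 (CpG in WT), 0 and 0 (KO against WT with CpG and unstimulated); for signalling genes 5 (CpG in WT) and 1 (KO against WT with CpG); and for shedding genes 1 in each genotype with CpG. DESeq2 gave 734 genes for KO against WT with CpG, 782 unstimulated and 3 for the interaction, with 5 signalling genes with CpG and, unstimulated, 1 of the 8 genes and 2 other family genes. A fit of only the libraries compared gave 253 genes for KO against WT with CpG, with 0 of the 8 genes, 0 other family genes and 1 signalling gene; unstimulated it gave 1 of the 8 and 2 other family genes; and for CpG in KO it gave 6 other family genes. Library size alone gave 0 other family genes for KO against WT with CpG.

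With library number within genotype as a replicate block, 2591 genes were called for CpG in KO, 1824 in WT and 13 for the interaction, with 17 signalling genes in KO, 13 in WT and 10 other family genes in WT. Same-numbered KO libraries correlated at 0.62, 0.09 and 0.68, beside 0.28, 0.41 and 0.44 in WT. KO libraries numbered 1 and 3 correlated with each other across treatments at -0.64 and -0.62. Those numbered 2 showed little, so whether the KO numbers are pairs was not settled. Under that block Tnfrsf1a (adjusted p = 0.00552) and Tnfsf9 (0.0319) passed edgeR's test in KO, where 24% of all genes were called. KO and WT libraries of 1 number correlated between -0.14 and 0.03; the replicate block gave 5 signalling genes for KO against WT with CpG, 1 of the 8 genes unstimulated (Tnfrsf1b, edgeR adjusted p = 0.0397) and 1 shedding gene for CpG in WT. Without both KO libraries numbered 3, 824 genes were called for KO against WT with CpG, with 4 signalling genes, and 7 signalling and 6 other family genes for CpG in KO; without those numbered 1, 341 genes were called unstimulated.

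Leaving out each library in turn gave 818 to 1347 genes for CpG in KO, 425 to 758 in WT, 234 to 699 for KO against WT with CpG and 278 to 604 unstimulated. Of the 8 genes it called 4 to 5 for CpG in KO, 0 to 3 for KO against WT with CpG and 0 to 1 unstimulated. Signalling genes numbered 9 to 12 for CpG in KO, 6 to 8 in WT and 1 to 4 for KO against WT with CpG; other family genes 6 to 11 in KO, 3 to 7 in WT and 0 to 1 for either genotype comparison; shedding genes 1 to 2 for CpG in WT.

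Changes of sign were seen in members' differences that passed no test. For KO against WT, log2 was -0.038 for Fas unstimulated without both KO libraries numbered 1 (-0.063 to 0.18 leaving out each library). Ltbr with CpG gave -0.076 with library size alone, -0.00311 without a filter, -0.00690 with only the libraries compared and -0.00768 with the replicate block (-0.11 to 0.16 leaving out each). Tnfsf14 with CpG gave 0.0108 in DESeq2, 0.0102 with RLE size factors, 0.0122 both with a filter of 1 CPM in 3 libraries and with curated transcripts, and 0.18 without KO libraries numbered 3 (-0.30 to 0.18 leaving out each). Tnfsf9 unstimulated ran from -0.65 to 0.92 leaving out each. For CpG in KO without the libraries numbered 3, Ltbr gave 0.00550 (-0.20 to 0.074 leaving out each), and Tnfsf13b ran from -0.14 to 0.022 in KO and from -0.53 to 0.0025 in WT. Interactions were 0.00352 for Tnfrsf1a without KO libraries numbered 3 (-0.16 to 0.074 leaving out each) and 0.019 for Tnfrsf1b with curated transcripts (-0.18 to 0.097), and ran from -0.017 to 0.26 for Ltbr, -0.071 to 0.48 for Tnfsf13b, -0.44 to 0.026 for Tnfsf14 and -0.61 to 0.95 for Tnfsf9. The cause of these changes was not tested. With 3 libraries a group and few counts, Tnfsf9 had intervals wider than 2 log2 units in every comparison.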
